A study of Rattus norvegicus with 12 samples.

Results

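Matricellular proteins are secreted into the extracellular matrix, where they act mainly as signals to cells rather than as scaffold. The set described here holds 10 genes: Ccn1, Ccn2, Spp1, Mgp, Thbs1, Thbs2, Sparc, Tnc, Fbln2 and Tinagl1. They were chosen with their differences between endothelin-treated and untreated rat retinal ganglion cells (RGCs) already known, so those differences are given here as descriptions. Whether a member passed the threshold is stated as no evidence about the members, and their p-values against untreated are not printed. The share of all probe sets that passed is given where the threshold is defined and beside the counts over the set. Members were all probe sets annotated with a single symbol from the list. This gave 10 probe sets for 9 of the 10 genes, of 31042 probe sets and 14217 named genes on the array. Sparc had 2 probe sets, and Thbs1 had none under its own symbol alone and was not analysed here.

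RNA was measured on Affymetrix rat expression arrays. RGCs are the output neurons of the retina. They were panned with a Thy-1.1 antibody from Sprague-Dawley pups at postnatal days 4 to 6. All groups shared 7 days of culture in serum-free DMEM with brain-derived neurotrophic factor at 50 ng/mL, ciliary neurotrophic factor at 10 ng/mL and forskolin at 5 ng/mL. All then went overnight into medium lacking the neurotrophic factors. The treatments were endothelin-1 (ET-1) at 100 nM, the same dose of endothelin-2 (ET-2) and the same dose of endothelin-3 (ET-3), each for 24 h, or no peptide. The control is called untreated in the titles and vehicle-treated in the descriptions, and keeps the first name below. There were 3 arrays in each of 4 groups, with replicate numbers 1 to 3, and the labels do not say what a number stands for or how many animals were pooled. The p-values below therefore measure the spread between these arrays.

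The endothelins are short peptides with a shared pattern of disulfide bridges. ET-1 and ET-2 are close in sequence and bind the endothelin A and B receptors alike, while ET-3 is the more divergent peptide and prefers the B receptor. Matricellular proteins bind integrins, syndecans and growth factors, and in the eye they are known from the trabecular meshwork and the optic nerve head, where they are studied in glaucoma. Ccn1 and Ccn2 (older symbols Cyr61 and Ctgf) belong to the CCN family of modular proteins. Both are textbook targets of YAP acting through TEAD transcription factors and of serum response factor (SRF) with its actin-regulated coactivators, the MRTFs. The endothelin receptors had no probe set under their own symbols alone and were not analysed here.

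The promoter letters of 4 members are shown because the Ccn genes are known TEAD targets, Sparc carried a match as well, and Tnc, the member with the largest mean change, carried none. Each window is the 250 bases before the start of the RefSeq transcript (build GRCr8), written 5′ to 3′ on the gene's strand, which is the minus strand for all 4. The Ccn1 gene spans chr2:237222730-237225689 and Ccn2 chr1:22621498-22624614, so both windows end just before the gene's first base. The start used for Tnc lies inside its gene span, chr5:82391340-82476197. Capitals mark GGAATG, a core TEAD-type motif, or its complement CATTCC. The windows are chr2:237225690-237225939 for Ccn1, chr1:22624615-22624864 for Ccn2, chr10:40038817-40039066 for Sparc and chr5:82476132-82476381 for Tnc.
Ccn1: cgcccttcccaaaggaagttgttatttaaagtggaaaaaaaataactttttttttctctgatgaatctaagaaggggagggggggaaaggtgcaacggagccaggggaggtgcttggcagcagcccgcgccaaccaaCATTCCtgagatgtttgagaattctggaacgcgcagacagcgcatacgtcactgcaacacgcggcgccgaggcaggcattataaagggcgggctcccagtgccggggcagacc
Ccn2: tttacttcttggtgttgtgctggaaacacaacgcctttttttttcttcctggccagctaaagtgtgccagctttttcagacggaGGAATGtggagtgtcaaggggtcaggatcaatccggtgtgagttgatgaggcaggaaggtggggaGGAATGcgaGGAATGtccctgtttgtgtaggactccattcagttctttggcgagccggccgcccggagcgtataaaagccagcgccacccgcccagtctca
Sparc: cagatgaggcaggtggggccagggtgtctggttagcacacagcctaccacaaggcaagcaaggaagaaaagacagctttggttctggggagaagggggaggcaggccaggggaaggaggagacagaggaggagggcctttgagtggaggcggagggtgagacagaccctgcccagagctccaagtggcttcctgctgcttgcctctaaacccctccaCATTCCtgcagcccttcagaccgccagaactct
Tnc: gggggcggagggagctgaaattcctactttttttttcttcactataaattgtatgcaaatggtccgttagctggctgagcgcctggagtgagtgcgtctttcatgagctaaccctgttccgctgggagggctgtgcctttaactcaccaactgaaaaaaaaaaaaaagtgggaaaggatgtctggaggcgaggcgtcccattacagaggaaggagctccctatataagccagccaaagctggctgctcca
The Ccn2 window held 3 copies of GGAATG on the gene's strand, whose first bases lay 166, 101 and 92 bases before the start. The Ccn1 window held 1 copy on the opposite strand, 113 bases before the start, and the Sparc window 1 copy, also on the opposite strand, at 33 bases. RefSeq's promoter table held 8 of the 10 genes, and Mgp and Thbs2 were not among them. Thbs1 also held 1 copy, and the windows of Spp1, Tnc, Fbln2 and Tinagl1 held none. Searched on both strands, GGAATG occurred in 4037 of all 33469 windows of this length (12.1%), and 27 windows (0.0807%) held 3 or more copies. No member window held TGANTCA, the AP-1 core (6.34% of all windows), the cyclic AMP response element TGACGTCA (1.59%) or the CArG box bound by SRF (1.5%). TATAAA was found in 4 of the 8 member windows and in 12.9% of all. It lay 34 and 31 bases before the start in Ccn1 and Ccn2, and 204 and 208 bases before it in Spp1 and Tnc. The matches in the printed windows did not overlap each other, and a match is a string of letters, not a measured binding site.

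Signals below are the deposited MAS5 intensities on a linear scale, and changes are differences of log2 signal from limma with replicate number as a blocking term. A probe set is termed called where its Benjamini-Hochberg adjusted p over 15521 tested probe sets was under 0.05. Of all tested probe sets, 1.51%, 1.28% and 2.13% were called higher with ET-1, ET-2 and ET-3. These shares stand beside every member call below. All 10 member probe sets lay above the filter on low signal, but Fbln2 did so only through its treated arrays: its mean log2 signal was 7.24 over all arrays and 6.61 untreated, and the filter lay at 7.20. The same held for 10 genes of the lists below other than the marker lists, which were not checked for this. Of the 10, 5 were called (Tnfrsf11b, Itgb3, Itga8, Fjx1 and Dock5). With no filter, Tnfrsf11b kept its call with each endothelin and Itgb3 with ET-3, and the other calls of Fbln2 and of these genes were not made. Array medians ran from 136 to 181. Of 14 RGC markers on the array all 14 passed the filter, while 0 of 8 photoreceptor markers, 1 of 9 endothelial, 2 of 7 oligodendrocyte and 4 of 8 amacrine and bipolar cell markers did. The arrays differed by replicate number in other cell types' transcripts: 9 fibroblast markers summed to between 51914 and 57662 in replicate 1, 8349 and 11895 in replicate 2, and 7501 and 9175 in replicate 3. The RGC markers summed to between 92818 and 97735 in replicate 1 and between 131856 and 145835 in replicate 3.

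Ccn1 and Ccn2 were higher in every endothelin-treated array than in every untreated array. Ccn1, an integrin ligand that promotes adhesion and migration (probe set 1368290_at), had untreated signals of 608, 370 and 455 in replicates 1 to 3. With ET-1 it read 2576, 977 and 823, with ET-2 2625, 849 and 734, and with ET-3 2624, 1067 and 623. The 3 treated arrays of replicate 1 stood far above all others, and the ET-3 array of replicate 3 came within a few percent of the highest untreated array. Its log2 change was 1.45 ± 0.23 with ET-1, 1.33 ± 0.23 with ET-2 and 1.36 ± 0.23 with ET-3. All 3 changes were called. Here and below, ± is limma's SE from the fit to all arrays together, with n = 3 arrays per group. It is the same for each endothelin of a probe set and is not the spread of a change over replicates. With ET-1 the changes of Ccn1 in replicates 1 to 3 were 2.08, 1.4 and 0.86. The mean of the endothelins was 2.61-fold untreated, made up of 4.29-fold in replicate 1, 2.6-fold in replicate 2 and 1.59-fold in replicate 3. Without replicate 2, none of the 3 calls for Ccn1 was made, although the changes were 1.47, 1.40 and 1.28, and without replicate 1 those with ET-2 and ET-3 were lost, at log2 changes of 0.95 and 0.99.

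Ccn2 (1367631_at), the family member best known from fibrosis, had untreated signals of 7141, 11495 and 9244. The signals were 15220, 18356 and 14770 with ET-1, 15821, 17299 and 14675 with ET-2, and 15625, 18897 and 15715 with ET-3. The treated arrays lay closer together than the untreated ones, with a log2 SD over 3 arrays of 0.17, 0.12 and 0.16 against 0.34. Changes were 0.81, 0.80 and 0.87 on the log2 scale, each ± 0.08, and all were called. The mean fold was 1.78 over the 3 replicates, with 2.18 in replicate 1, 1.58 in replicate 2 and 1.63 in replicate 3. Under the 16 alternatives that kept the replicate block, leaving out any replicate or array among them, Ccn2 was called with each endothelin in all 16. Without the block it was not called with any. The alternatives reuse the same arrays, so this count is a description and no support for the change.

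**Figure D1:**
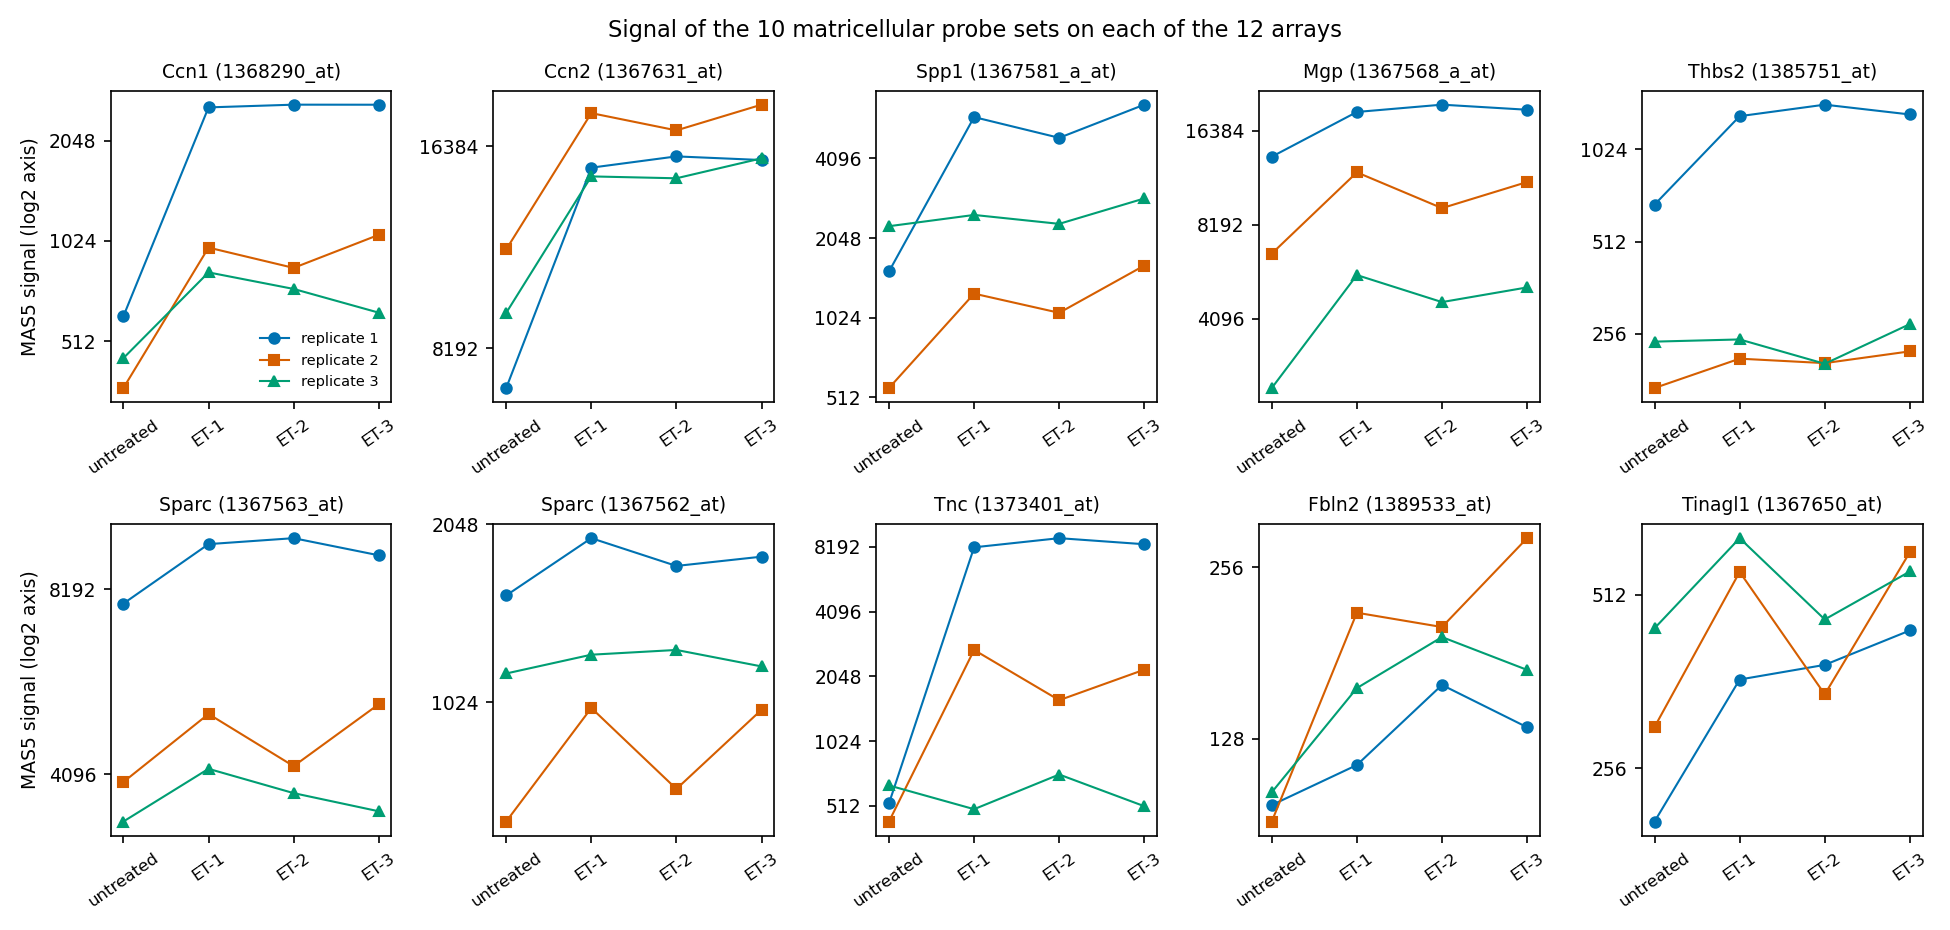
MAS5 signal (log2 axis, a separate scale in each panel) of the 10 member probe sets in the 12 arrays, with groups along the x axis, 1 point per array and a line joining arrays of the same replicate number. Every treated array of Ccn1, Ccn2 and Fbln2 lies above every untreated array, and in Tnc the treated arrays of replicates 1 and 2 reach 1586 to 8983 while replicate 3 stays at 494 to 716.

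Of the ligands with a role in mineral and inflammatory signalling, Spp1 (osteopontin, a ligand of integrins and CD44 that is also a marker of a subset of RGCs; 1367581_a_at) was higher in 9 of 9 treated arrays than in the untreated array of its own replicate. Its untreated signals were 1530, 554 and 2270. It read 5876, 1261 and 2504 with ET-1, 4904, 1067 and 2317 with ET-2, and 6548, 1611 and 2891 with ET-3. The groups overlapped, because the untreated arrays themselves spanned 4.1-fold and the untreated array of replicate 3 exceeded every treated array of replicate 2. The log2 change was 1.09, 0.89 and 1.33, each ± 0.25, and only the last of these was called. The fold was 3.75 in replicate 1, 2.34 in replicate 2 and 1.13 in replicate 3, and without replicate 1 or replicate 2 the ET-3 call was lost, at log2 changes of 0.94 and 1.22.

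Mgp (matrix Gla protein, 1367568_a_at), an inhibitor of calcification, differed most between untreated arrays, at 13529, 6627 and 2463. It read 18807, 12056 and 5658 with ET-1, 19846, 9262 and 4637 with ET-2, and 19118, 11225 and 5166 with ET-3. Groups overlapped across replicates, yet each treated array exceeded the untreated array of its own number. Mgp was 0.85, 0.65 and 0.78 higher on the log2 scale, each ± 0.11, and called with all 3 endothelins. It was the only member with its largest fold in replicate 3, at 2.09 against 1.42 and 1.63 in replicates 1 and 2. Without replicate 2 no Mgp call was made with a single endothelin, although the changes were 0.84, 0.73 and 0.78, and without replicate 3 the ET-2 call was lost, at 0.52.

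Tnc (tenascin C, 1373401_at), a hexameric glycoprotein that modulates adhesion and is made by reactive glia and fibroblasts, had the largest and the least even change. Untreated arrays read 526, 433 and 637. Treated arrays of replicate 1 read 8145, 8983 and 8419 with ET-1, ET-2 and ET-3, those of replicate 2 read 2715, 1586 and 2199, and those of replicate 3 read 494, 716 and 510. Replicates 1 and 2 thus stood 16.2-fold and 4.89-fold above untreated, and replicate 3 at 0.887-fold. The log2 change was 2.08, 2.05 and 2.01, each ± 0.62, although with ET-1 it ran from 3.95 in replicate 1 to -0.37 in replicate 3. The change was called with no single endothelin. It was called with all 3 when replicate 3 was left out, at 3.30, 2.98 and 3.17, and with none when replicate 1 was left out, at 1.14, 1.02 and 1.01.

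Thbs2 (1385751_at), a thrombospondin that inhibits angiogenesis, stood clearly above untreated in replicate 1, where its signal was high without peptide. In replicate 1 it read 676 untreated and 1315, 1434 and 1332 with ET-1, ET-2 and ET-3. In replicate 2 the signals were 170, 212, 205 and 224 in the same order, and in replicate 3 they were 241, 245, 204 and 275. It was higher in 8 of 9 treated arrays than in the untreated array of the same number, and its log2 changes of 0.43, 0.37 and 0.52, each ± 0.18, were not called.

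Sparc (osteonectin, a collagen-binding glycoprotein) differed least. Its probe set 1367563_at read 7767, 3980 and 3432 untreated, 9705, 5135 and 4181 with ET-1, 9924, 4223 and 3817 with ET-2, and 9307, 5326 and 3566 with ET-3. The groups overlapped broadly, although all 9 treated arrays lay above the untreated array of their number. The log2 change was 0.32, 0.20 and 0.25, each ± 0.08, and not called. The other probe set, 1367562_at, gave 0.35, 0.16 and 0.30, each ± 0.11 and not called, so both lay in the same direction in 9 of 9 arrays. With the mean of the 3 endothelins, 1367563_at was called and 1367562_at was not. That call was made under 7 of 21 alternatives that kept the replicate block.

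Fbln2 (fibulin 2, 1389533_at), which links elastic fibres and basement membranes, passed the filter only through its treated arrays. Its untreated signals of 97.8, 91.5 and 103 lay within 1.13-fold of each other. It read 115, 213 and 157 with ET-1, 159, 201 and 193 with ET-2, and 134, 288 and 169 with ET-3, all above every untreated array. Changes of 0.69, 0.91 and 0.94 on the log2 scale, each ± 0.21, were called with ET-3 alone, a call lost without any one of the 3 replicates and with no filter. Tinagl1 (1367650_at), a basement membrane protein that binds integrins, read 207, 302 and 448 untreated. It read 365, 561 and 642 with ET-1, 387, 344 and 464 with ET-2, and 444, 607 and 562 with ET-3. Treated and untreated ranges overlapped, and the changes were 0.75, 0.38 and 0.81, each ± 0.17, with those of ET-1 and ET-3 called. The ET-1 call was lost without any one of the 3 replicates, at 0.71, 0.67 and 0.86, and was made under 3 of 15 alternatives. The ET-3 call was lost without replicate 1 or 2, at 0.67 and 0.72.

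Across the set, 4 of 10 probe sets were called with ET-1, 3 with ET-2 and 6 with ET-3, all higher, where 1.51%, 1.28% and 2.13% of all tested probe sets were called higher. Against the mean of the 3 endothelins, 8 of 10 were called, where 3.54% of all were. Since the members were chosen on these contrasts, nothing is read from these counts. The median log2 change of the members was 0.78, 0.72 and 0.84 with ET-1, ET-2 and ET-3, beside -0.03, -0.02 and -0.03 over all tested probe sets. Arrays of all 3 replicates lay above all untreated arrays for 3 members with ET-1 (Ccn1, Ccn2 and Fbln2), 4 with ET-2 (Tnc in addition) and 3 with ET-3, where 2.25%, 2.13% and 2.54% of all tested probe sets did so. Of the 10 probe sets, 8 (all but Thbs2 and Tnc) were above the untreated array of the same number in all 9 treated arrays, where 5.59% of all tested probe sets were. In the fit without the replicate block, which treats the arrays as unpaired, limma called 0 members and 0 of all probe sets with any endothelin or their mean. At unadjusted p under 0.05 that fit held 237, 223 and 297 probe sets with ET-1, ET-2 and ET-3.

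The changes of the members were uneven over replicate numbers. The fit takes each change as equal over replicates, so the ± values and the calls do not carry this unevenness in full. The SD of the log2 change over the 3 replicates was 0.72 for Ccn1, 0.87 for Spp1 and 2.10 for Tnc, while over the 3 endothelins it was 0.06, 0.22 and 0.04. For Ccn2 the values were 0.26 and 0.04, and for Sparc 1367563_at 0.08 and 0.06. These SDs are not on an equal footing, because the 3 changes within a replicate share its untreated array and each endothelin's change is a mean over replicates. In 7 of the 10 probe sets replicate 1 had the largest mean change, and in 6 of those (Ccn1, Spp1, Thbs2, Tnc, Tinagl1 and Sparc 1367563_at) replicate 3 had the smallest. Over the 549 probe sets called higher with the mean of the endothelins, 66.5% had their largest change in replicate 1 and 48.8% had both. Over all tested probe sets the shares were 29.2% and 15%. Replicate 1 is also where the fibroblast markers were most abundant, and the part of other cells in these changes was not tested. In bulk samples a smaller number of cells of a type and less RNA per cell cannot be told apart.

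**Figure D2:**
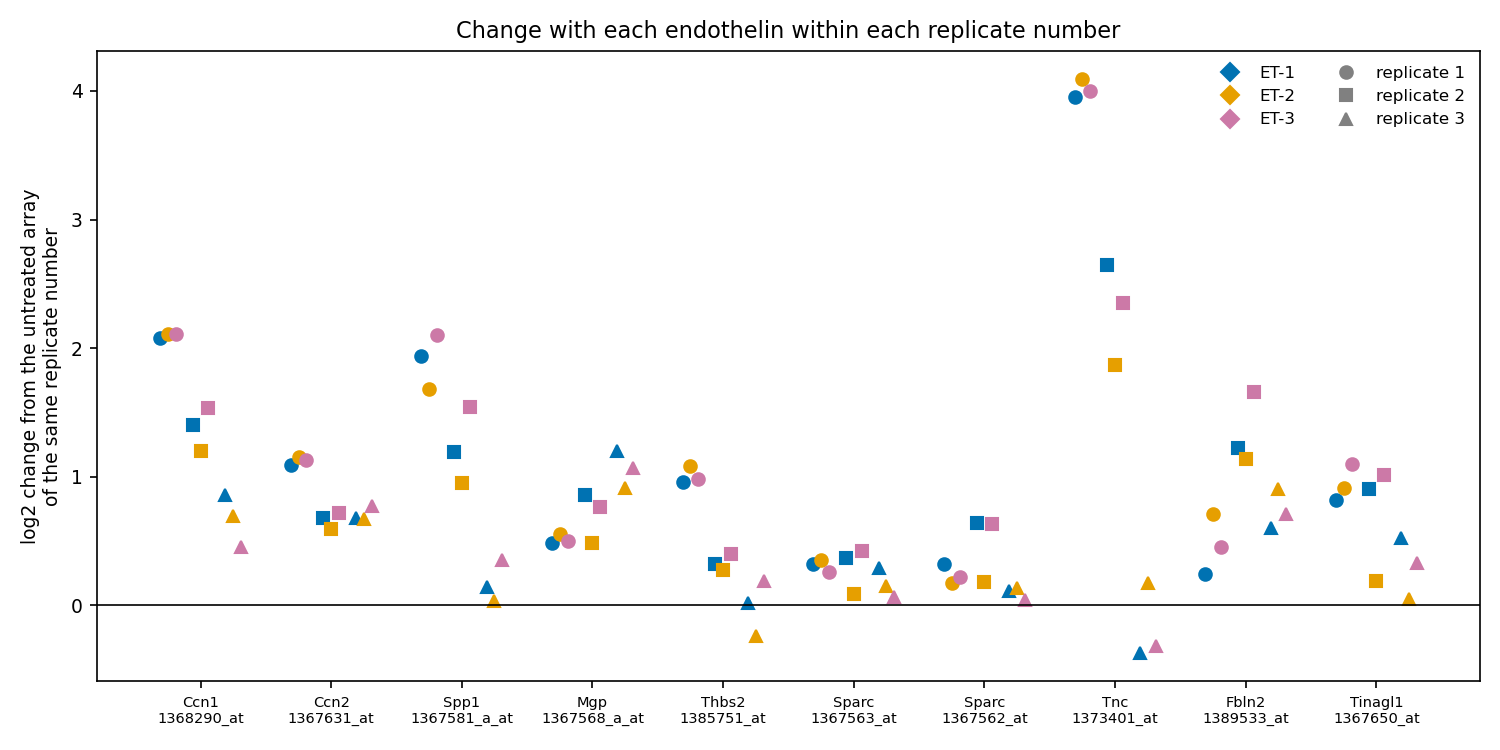
Log2 change of each member probe set from the untreated array of the same replicate number (y axis, log2 units), with 1 point per treated array, coloured by endothelin and shaped by replicate number. The 3 endothelins of a replicate lie close together for most members, and Tnc spreads widest, which as a ratio is from 0.776-fold to 17.1-fold.

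Marker sums were set beside the treatment for the same reason. The summed signal of 11 astrocyte and Müller glia markers was above untreated in 9 of 9 treated arrays, at 1.2 to 1.66 times the untreated array of the same number. Its range was 19044 to 25137 untreated, 25662 to 32200 with ET-1, 22931 to 33500 with ET-2 and 26251 to 33734 with ET-3. Of its 6 tested markers, 3, 2 and 3 were called higher with ET-1, ET-2 and ET-3. Of all tested probe sets, 1.51%, 1.28% and 2.13% were. The log2 change was positive for 5 of 6 with ET-1, 3 of 6 with ET-2 and 6 of 6 with ET-3. Vim (vimentin) was called higher with each endothelin, at 0.69, 0.62 and 0.70, as was Gja1 (connexin 43), at 1.06 with ET-1 and 1.03 with ET-3, and Clu (clusterin) was called with ET-1 (0.24 ± 0.05) and ET-3 (0.33 ± 0.05). Slc1a3, a glial glutamate transporter, was below untreated in all 6 treated arrays of replicates 2 and 3, and Glul, the glutamine synthetase of Müller glia, in all 6 of replicates 1 and 3, while Gfap, Aqp4, Rlbp1, S100b and Aldh1l1 lay under the filter. The part of glial cells in the members' changes was not tested.

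The other marker lists did not lie above untreated in every array. Of all tested probe sets, 0.219%, 0.322% and 0.509% were called lower with ET-1, ET-2 and ET-3. The fibroblast sum was above its untreated array in 2 of 9 arrays (0.702 to 1.13 times), and 1 of 8 tested fibroblast markers (Ogn) was called lower with ET-1 and with ET-3 and 2 with ET-2 (Ogn and Col3a1). The RGC sum was above in 6 of 9 (0.9 to 1.11 times), with 1 of 14 markers called lower with ET-1 (Eomes). For pericytes and smooth muscle the count was 6 of 9 (0.917 to 1.37 times), where Acta2 was called higher with each endothelin and Pdgfrb with ET-3. Microglia and macrophage markers were above in 5 of 9 arrays (0.88 to 1.36 times) with none of 7 called, and endothelial markers in 1 of 9 (0.489 to 1.05 times), where only Kdr passed the filter and was called lower with ET-2. Oligodendrocyte markers were above in 1 of 9, and 1 of 2 tested (Cldn11, claudin 11) was called lower with ET-1 (-1.07 ± 0.18) and ET-2 (-0.87 ± 0.18). The sums were above untreated for photoreceptor markers in 6 of 9, and amacrine and bipolar cell markers in 0 of 9.

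**Figure D3:**
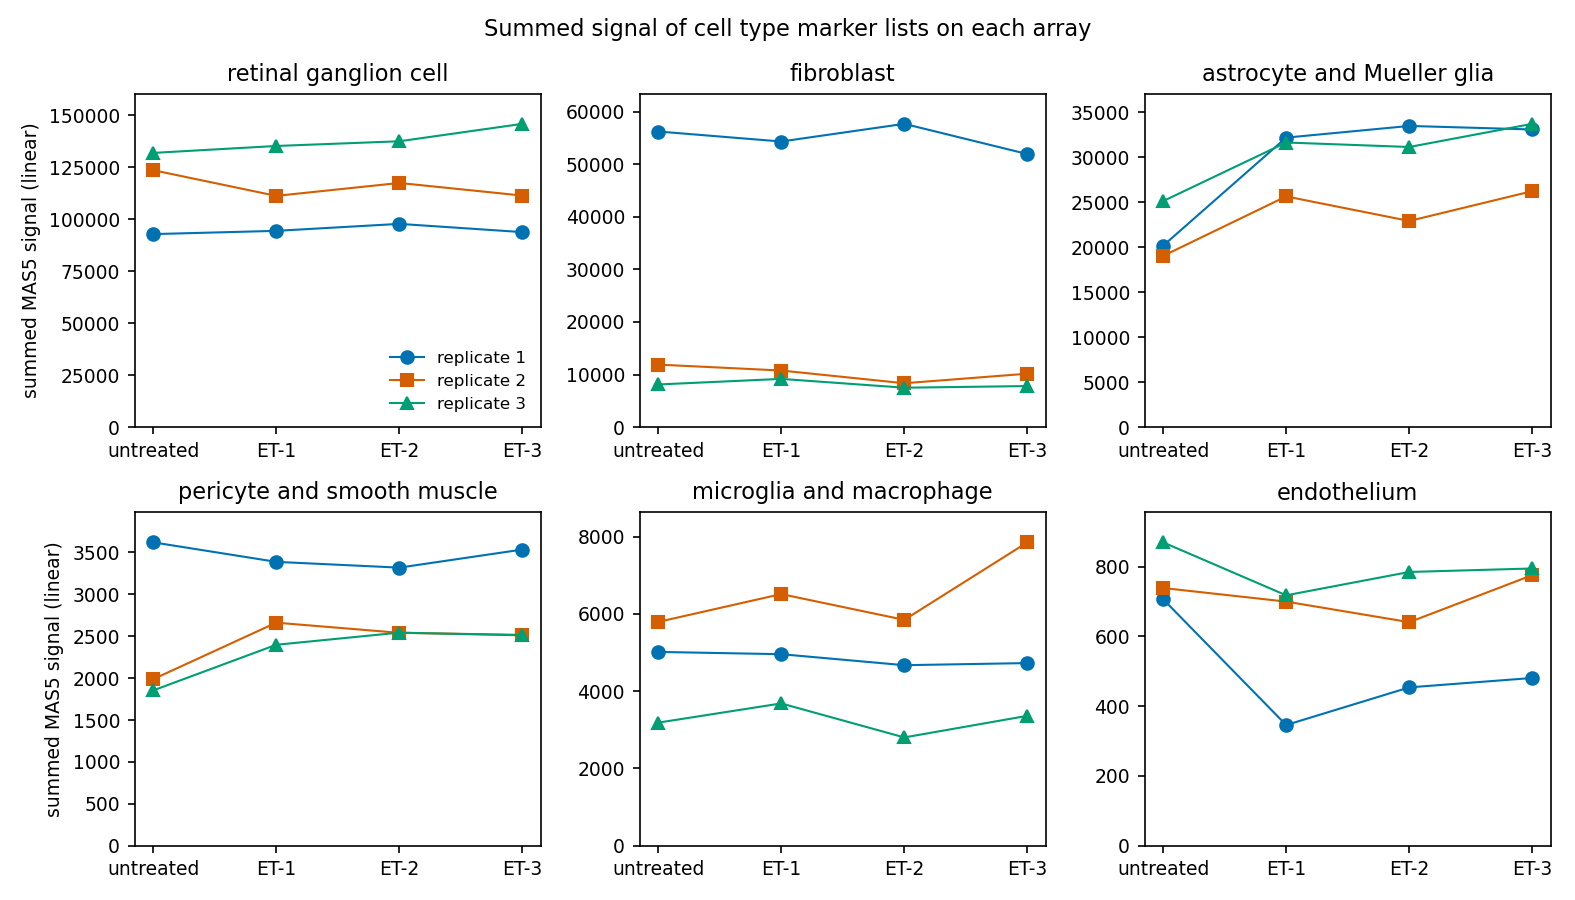
Summed MAS5 signal (linear y axis from 0, a separate scale in each panel) of 6 cell type marker lists in the 12 arrays, with groups along the x axis and a line joining arrays of the same replicate number. The fibroblast sum is 51914 to 57662 in replicate 1 and at most 11895 in the others, and the astrocyte and Müller glia sum is 1.2 to 1.66 times untreated in every treated array.

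The members were chosen with their differences from untreated known, and the comparisons between peptides use the same treated arrays. These comparisons were tested, but not on members chosen independently of those arrays. The 3 pairs of endothelins at the matched dose and time gave 30 comparisons over the 10 probe sets, with p-values adjusted over all 15521 probe sets of each pair. None was called by limma, and percent called over all tested probe sets was 0 in each pair as well. At unadjusted p under 0.05 there were 574 probe sets for ET-2 against ET-1, 347 for ET-3 against ET-1 and 583 for ET-3 against ET-2, with 1, 0 and 1 members among them. The lowest adjusted p of a member from limma was 1, 1 and 0.999 for the 3 pairs, which does not show that the peptides act alike.

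For Ccn2 the intervals were narrow. The log2 difference was -0.01 for ET-2 minus ET-1 (95% interval -0.20 to 0.17), 0.06 for ET-3 minus ET-1 (-0.13 to 0.24) and 0.07 for ET-3 minus ET-2 (-0.11 to 0.25). Ccn1 gave -0.11 (-0.60 to 0.38), -0.08 (-0.57 to 0.41) and 0.03 (-0.46 to 0.52) for the same pairs. Outside Tnc, the intervals of all members lay within 0.593-fold and 1.99-fold. Those of Tnc reached from 0.377-fold to 2.47-fold.

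Tinagl1 had the smallest unadjusted p of the members for ET-2 against ET-1 and for ET-3 against ET-2. It was 0.36 lower with ET-2 than with ET-1 on the log2 scale (interval -0.73 to 0.00, adjusted p = 1 by limma) and 0.43 higher with ET-3 than with ET-2 (0.07 to 0.79, adjusted p = 0.999). Fbln2 had the smallest p for ET-3 against ET-1, at 0.25 (-0.20 to 0.71, adjusted p = 1). With ET-2, 9 of the 10 probe sets were lower than with ET-1, and 9 were lower than with ET-3. Over all tested probe sets, 49.1% were higher with ET-2 than with ET-1 and 50.3% higher with ET-3 than with ET-2. These counts share the ET-2 arrays, whose medians were above those of the other groups in replicates 2 and 3. The levels thus ran from untreated, the lowest group mean for all 10 probe sets, to the 3 endothelins, whose order was not separable for any member.

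**Figure D4:**
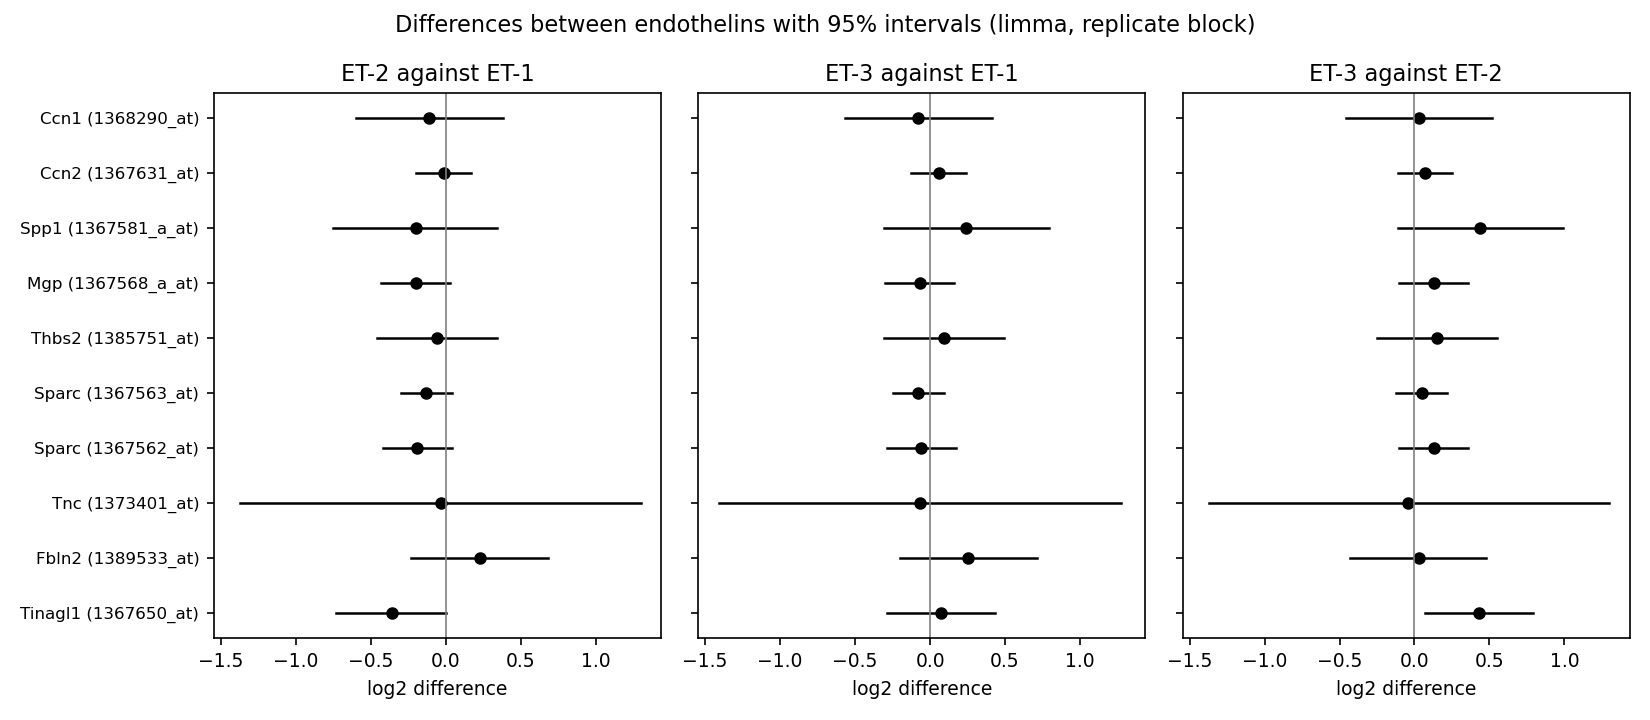
Log2 difference between endothelins (x axis, log2 units) for each member probe set and each of the 3 pairs, with points for limma's estimate and bars for its 95% interval. The Ccn2 bars lie within -0.20 and 0.25, and the Tnc bars are the widest, from -1.41 to 1.30.

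Ccn3 was called among the other matricellular genes. For these and for the lists that follow, the background is the share of all tested probe sets called. Called higher were 1.51%, 1.28% and 2.13% with ET-1, ET-2 and ET-3 and 3.54% with their mean. Called lower were 0.219%, 0.322% and 0.509% with ET-1, ET-2 and ET-3 and 1.35% with their mean. Of 32 listed, 29 had a probe set and 14 passed the filter, with 2, 1 and 3 called higher with ET-1, ET-2 and ET-3 and none lower, and median log2 changes of 0.17, 0.12 and 0.03. Ccn3, another CCN gene often set against its relatives as a growth inhibitor, was higher by 0.74, 0.65 and 0.83, each ± 0.12, and called with all 3. It read 1388, 2478 and 1628 untreated, 3205, 3937 and 2078 with ET-1, 2943, 3342 and 2189 with ET-2, and 2875, 4396 and 2480 with ET-3. The groups overlapped, since the untreated array of replicate 2 exceeded 2 treated arrays of replicate 3. Efemp2 (fibulin 4) was called with ET-1 (0.39 ± 0.08) and ET-3 (0.38 ± 0.08), and Fstl1 with ET-3 (0.29 ± 0.06). Among those not called, Smoc1 was at -0.63 ± 0.17 with ET-2, Sparcl1, a Sparc relative made by astrocytes, at -0.50 ± 0.14 with ET-3, Tnr, the tenascin of nervous tissue, at -0.46 ± 0.18 with ET-3, and Efemp1 at 0.45 ± 0.23 with ET-1.

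Among 27 receptors of these proteins, 18 passed the filter, and 4, 1 and 4 were called higher with ET-1, ET-2 and ET-3, with median changes of 0.09, 0.01 and 0.14. Itgb1, the common integrin beta-1 chain, was called with each, at 0.47, 0.39 and 0.43 (± 0.08). Sdc4 (syndecan 4, a heparan sulfate co-receptor of CCN proteins) stood at 1.31, 1.15 and 1.27 (± 0.27) and Itgb3 (integrin beta-3, under the filter when untreated) at 1.01, 0.76 and 1.09 (± 0.21), both called with ET-1 and ET-3. Cd44, a receptor of osteopontin, was called with ET-1 (0.61 ± 0.14), and Itga8, a chain of an osteopontin and tenascin receptor, with ET-3 (1.09 ± 0.22). None of the 18 was called lower. Egfr at 0.25 ± 0.11 with ET-1 and Itga9 at -0.20 ± 0.13 with ET-3 were not called.

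Genes that share regulators with Ccn1 and Ccn2 were examined next. Of 20 other YAP and TEAD targets, 17 passed the filter, and 4, 4 and 5 were called higher with ET-1, ET-2 and ET-3, with 1 lower with ET-3 (Gadd45a, -0.26), and medians of 0.30, 0.27 and 0.32. Axl, a receptor tyrosine kinase, was at 1.38, 1.25 and 1.38 (± 0.13), Myof (myoferlin) at 1.14, 1.09 and 1.22 (± 0.13) and F3 (tissue factor) at 1.51, 1.27 and 1.48 (± 0.22), and all 3 were called with each endothelin. Crim1 was called with ET-1 (0.89 ± 0.17) and ET-3 (0.81 ± 0.17), and Fjx1 with ET-2 (0.92 ± 0.19). Nuak2, a kinase, was at 0.96, 0.81 and 0.94 (± 0.27) and was not called. Counting both directions, the calls in this list numbered 2 without replicate 2 with each endothelin, and without replicate 1 they numbered 2 with ET-2 and 3 with ET-3.

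Of 23 SRF and MRTF targets, 20 passed the filter, and 12, 11 and 13 were called higher and none lower, with medians of 0.53, 0.45 and 0.57. These are largely genes of the contractile actin cytoskeleton. Acta2 (smooth muscle actin) was at 0.55, 0.47 and 0.63 (± 0.08), Tpm1 (tropomyosin) at 0.42, 0.38 and 0.43 (± 0.06), and Tagln (transgelin) at 0.76, 0.59 and 0.82 (± 0.11). Cnn2 (calponin 2), Myh9 (non-muscle myosin), Cnn1 and Myl9 were called with each endothelin too. Egr2, an immediate early transcription factor, was at 0.80, 0.72 and 0.75 (± 0.25) and Junb at 0.58 ± 0.21 with ET-3, not called, and Egr1 was not called with ET-2, at 0.67 ± 0.17. The SRF counts fell to 1, 4 and 3 without replicate 2, to 0 and 6 with ET-2 and ET-3 without replicate 1, and to 4 with ET-2 without replicate 3. Without the replicate block, 0 genes of either list were called.

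Of 20 genes of the transforming growth factor beta pathway, which Ccn2 and thrombospondins are known to modulate, 13 passed the filter, with 3, 2 and 2 called higher and none lower and medians of 0.29, 0.17 and 0.25. Ltbp2, a latent TGF-beta binding protein of elastic fibres, was at 1.08, 0.92 and 1.18 (± 0.11), and the ligand Tgfb3 at 0.98, 0.85 and 1.09 (± 0.11), both called with each. Ltbp1 was called with ET-1 (0.83 ± 0.18), and the co-receptor Eng, at 0.48 ± 0.18 with ET-1, and Tgif1, at 0.45 ± 0.24, were not. Of 12 calcification regulators that act around Mgp, 9 passed the filter, with 1, 1 and 2 called higher, none lower, and medians of 0.27, 0.23 and 0.28. Tnfrsf11b (osteoprotegerin) was at 1.10, 1.09 and 1.25 (± 0.19) and called with each. Its untreated signals of 66.6, 140.3 and 99.2 lay under the filter, which it passed through the treated arrays. Bmp2, a ligand that Mgp binds, was called with ET-3 (0.56 ± 0.12). Enpp1, which makes the calcification inhibitor pyrophosphate, was at 0.47 ± 0.14 with ET-1 and was not called.

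**Figure D5:**
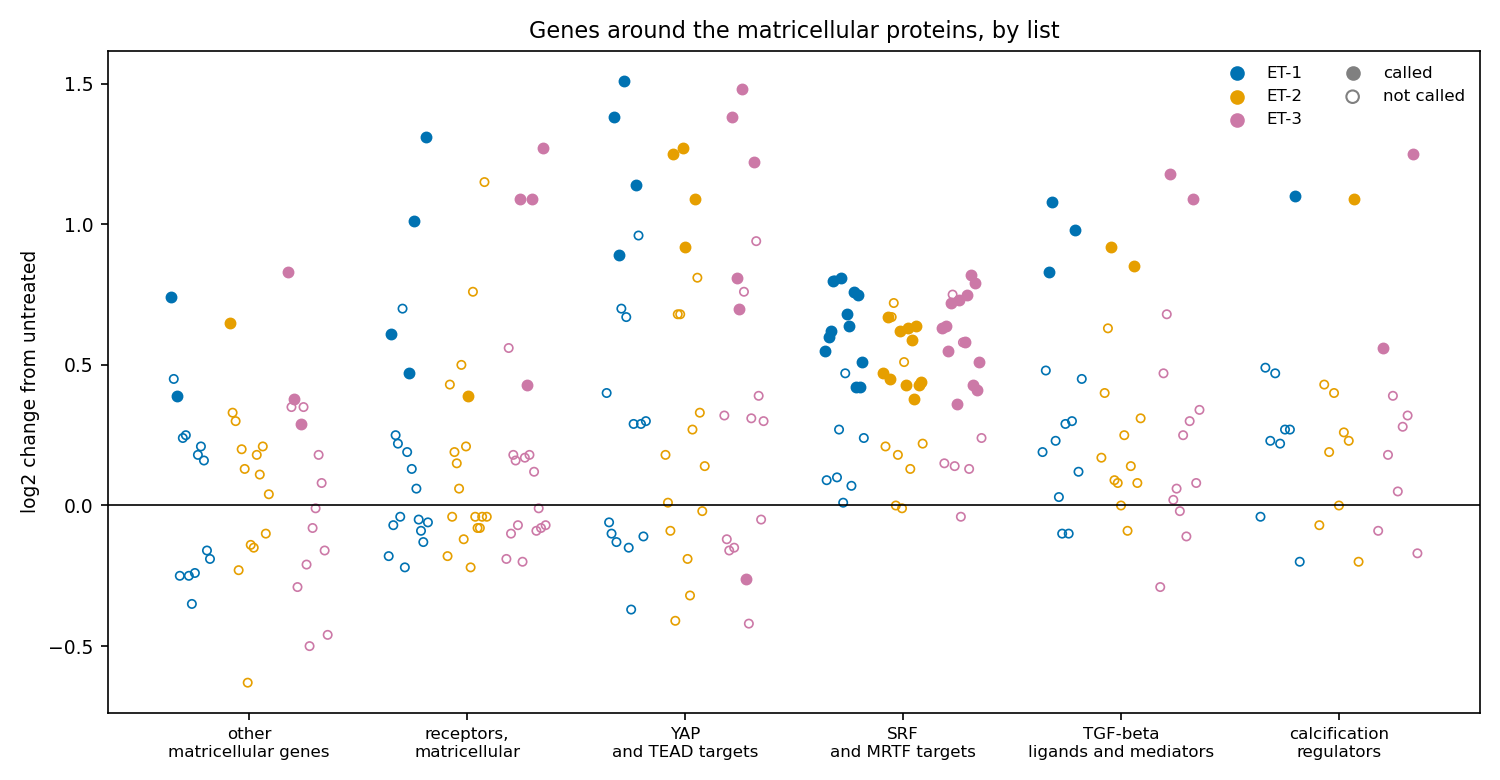
Log2 change from untreated (axis in log2 units) of the tested genes of each list, with 1 point per gene and endothelin, filled where called. The SRF and MRTF targets have the highest medians, at 0.53, 0.45 and 0.57, and the median over all tested probe sets lies at -0.03 to -0.02.

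The genes nearest to Ccn1 in pattern were found by the root mean square difference of log2 signal over the 12 arrays, after the mean of each replicate number was subtracted. They were F3 (0.103), Rasl11b (0.143), Sdc4 (0.146), Enpep (0.147) and Axl (0.155), of which F3 and Axl are in the YAP list and Sdc4 in the receptor list. Ccn2's nearest were Iqgap1 and Tk1 (both 0.087), Myl9 (0.088), Tpm2 (0.089) and Col4a1 (0.091), of which Myl9 and Tpm2 are in the SRF list. The distance between Ccn1 and Ccn2 themselves was 0.323, and the nearest member was Spp1 for Ccn1 (0.221) and Mgp for Ccn2 (0.197). Since all of these share the same arrays and untreated group, the distances are a description.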

How the data were processed

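Per the labels, total RNA was hybridised to 12 arrays. The authors deposited 1 linear intensity per probe set, and the submitters' processing notes name MAS5. A MAS5 version is not given in the sources used here. Each array's mean after trimming 2% at each end was 496.7 to 498.3 on all arrays, so the values appear scaled to a common level. The number of arrays limits the precision.

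Names came from the platform annotation: 20826 of 31042 had a single symbol, 436 several and 9780 none. Of the single-symbol probe sets, 20758 matched RefSeq by Entrez ID, and 0 symbols changed. A gene was represented by its probe set with the highest mean. Log2 signal, with no pseudocount, was tested in 15521 probe sets (9425 genes) with a mean at or above the median, a signal of 147.5. Limma 3.58.1 (R 4.3.3) fitted 4 group means and the replicate number as a block over all 12 arrays, with eBayes, an intensity trend and two-sided p-values adjusted by Benjamini-Hochberg at 0.05. The script was tested on simulated data with independent noise and changes equal over replicates, so uneven changes were not covered.

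The block follows the replicate numbers of the labels. Deviations from group means correlated at r = 0.684 to 0.912 in all 18 same-number pairs of arrays, over the minimum of 0.1, and at -0.758 to -0.0555 otherwise. Deviations within a group cancel out, which pushes the other pairs below zero, so their sign is no separate evidence for the block. The median residual SD was 0.127 with the block and 0.25 without.

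The members and the lists were chosen with earlier results of these data known. Named list genes were up to 4 called genes with the smallest p per comparison and up to 2 others with the largest change, plus the 5 nearest genes to Ccn1 and Ccn2, the member with the smallest p per endothelin pair, and marker genes that were called. Other genes named with them were chosen after their values were seen. Alternatives were no block, other scaling, a pseudocount of 32, other filters, no trend, fewer groups and arrays left out. List counts under alternatives were added after seeing the data.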

Additional observations from a re-analysis of the deposited data

How the results depend on the processing

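No member's change from untreated turned direction under any alternative run. Of 722 values, 715 moved by no more than the SD of the change over replicates (the rest were 6 of Sparc and 1 of Fbln2). That count is no measure of stability, because many of its outcomes were fixed in advance. Dropping the block or the trend leaves a log2 change as it was. Leaving out a whole replicate cannot move it past that SD. The counts of called members depended on the pairing: with no replicate block they were 0 with ET-1, ET-2, ET-3 and their mean, against 4, 3, 6 and 8. With no intensity trend they were 1 with ET-2 and 3 with ET-3, and with only the groups compared 2 with ET-3. Leaving out a replicate or an array gave 1 to 7 with ET-1, 1 to 5 with ET-2, 1 to 8 with ET-3 and 3 to 9 for the mean. The lowest counts came without replicate 2 and the highest without the untreated array of replicate 3. Single arrays that moved a count by over 1.5 times were the ET-2 arrays of replicates 1 and 3 (1 with ET-2 each), the ET-3 arrays of replicates 1 and 2 (2 with ET-3 each) and the untreated arrays of replicate 1 (5 for the mean), 2 (3 with ET-3 and 3 for the mean) and 3 (7 with ET-1, 5 with ET-2). The pairs of endothelins gave 0 called members under every alternative.

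Over all probe sets, calls with ET-1, ET-2, ET-3 and the mean were 268, 249, 410 and 758. They were 0 without the block and 123, 71, 170 and 438 without the trend. With only the groups compared they were 78, 56 and 56 for the single endothelins. With no filter ET-2 had 135 and ET-3 273, and with the stricter filter ET-2 had 159. Leaving out replicates or arrays gave 23 to 575, 27 to 404, 43 to 685 and 224 to 1014. Centring arrays on their median gave 1218 with ET-2 and 1492 for the mean. Centring moved the calls with ET-2 from 199 higher and 50 lower to 193 and 1025, those with ET-3 from 331 and 79 to 228 and 218, and those of the mean from 549 and 209 to 426 and 1066. The median of all tested probe sets with ET-2 then lay at -0.12 in place of -0.02, and all 10 members stayed positive with each endothelin. Under centring ET-2 called 7 SRF and MRTF targets and 7 YAP and TEAD targets. The causes were not tested.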
